A study of Homo sapiens with 10 samples.

Results

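Histone lysine methyltransferases and demethylases were followed through 2 fractions of HEK293 nuclei, as the RNA that encodes them. The members were taken by symbol from the authors' deposited gene table: tested loci with a single symbol starting with KMT2, KDM, SETD, SUV39H or SUV420H, and the named genes NSD1, WHSC1, WHSC1L1, EHMT1, EHMT2, DOT1L, SMYD2, SMYD3, SMYD5, JMJD1C, JMJD6, PHF8 and PHF2. This gave 47 loci of 16699 tested loci with 1 symbol, in a table of 241080 rows. Of the 47, 45 encode enzymes or enzyme-like proteins (28 methyltransferases or SET domain proteins and 17 demethylases or related hydroxylases). The other 2, KMT2E-AS1 and KDM5C-IT1, are transcripts of a member's locus that encode no enzyme. All 47 reached an FPKM of at least 1 in either fraction. Several family genes fell outside the rule. ASH1L, KMT2D, KDM4C and SUV420H2 stood in rows that name other genes as well, KDM4A had a status that marks too many reads to process, and KDM4E and KDM5D were listed without a test. The row naming KMT2D and PRKAG1 was called towards SNE by the authors' deposited table (90.8 against 27.9, q = 0.000706), as was the row with SUV420H2 (11.5 against 4.28, q = 0.000706). The rows with ASH1L (21.1 against 12.1, q = 0.493) and KDM4C (6.76 against 11.1, q = 0.397) were not called there. KDM1A and PRDM2 were not analysed here.

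HEK293 is an established cell line of human embryonic kidney origin, grown here as adherent cells. Nuclei of 3 biological replicates, released by lysis with detergent, were fractionated into the soluble extract (SNE, 3 samples) and the extract of the chromatin pellet (CPE, 3 samples). No treatment is named for these, and their RNA was sequenced from stranded total RNA libraries. A further 2 chromatin samples with DRB, an inhibitor of transcription elongation, and 2 mock chromatin samples are labelled, but the table used here compares SNE with CPE alone. It gives 1 FPKM (fragments scaled to transcript length and library size) per locus and fraction, without a value for each sample, so no spread between replicates could be shown and depth per sample was unknown. A locus was called where the q of the authors' Cuffdiff test was at most 0.05. FPKM is relative to the library total, so the ratio of CPE to SNE compares shares of 2 fractions and not molecules per nucleus. In bulk RNA, fewer cells with a transcript and less transcript per cell cannot be told apart.

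As a check on the fractions, the nuclear-retained RNAs NEAT1 and MALAT1 were called towards CPE by the authors' deposited table, with log2 ratios of 3.44 and 1.45. The messenger RNAs of GAPDH and RPLP0 were called higher in SNE there, with log2 ratios of -2.34 and -2.26. Over 12630 loci with 1 symbol and an FPKM of at least 1 in either fraction, the median log2 ratio was -1.36. Values of the members are best read against that median as well as against 0.

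Methyl groups on histone lysines mark chromatin states, and their meaning depends on the residue. Methylation of histone H3 at lysine 4 (H3K4), lysine 36 (H3K36) and lysine 79 (H3K79) accompanies promoters, enhancers and transcribed bodies of genes, whereas H3K9 methylation marks heterochromatin and H4K20 methylation is tied to the cell cycle and to chromatin compaction. Nearly all of the methyltransferases carry a SET domain, with DOT1L as the exception. Demethylases use either an amine oxidase (the KDM1 enzymes) or a JmjC domain, an iron- and 2-oxoglutarate-dependent oxygenase.

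Transcripts of the family either were called higher in SNE or missed the threshold, and none was called higher in chromatin. Of the 47 members, 19 passed towards SNE (40.4%), 0 towards CPE and 28 in neither direction, by Cuffdiff's test in the authors' deposited table. Among all loci with 1 symbol and an FPKM of at least 1, 48.1% were higher in SNE and 1.49% higher in CPE, so the members' shares lay near those of other expressed genes. At an unadjusted p under 0.05, 23 members were lower in chromatin and still 0 were higher. The median log2 ratio of the members was -0.82 (interquartile range -1.41 to -0.30), closer to 0 than the -1.36 of all such loci (-1.97 to -0.52), and 35 of the 47 had a ratio above that overall median. No test was made of the list. Relative to the overall median, 10 of the 19 called members had a ratio on the chromatin side, without a new test.

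Calls and ratios did not order the members in the same way. WHSC1 was called at a log2 ratio of -0.74 in the authors' deposited table, the called member closest to 0. A total of 8 members had a lower ratio than that and were not called, 5 of them below -1: SETD9, SMYD3, SETD1A, DOT1L and SUV420H1. A missing call at these genes therefore does not show that their RNA was evenly divided.

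**Figure D1:**
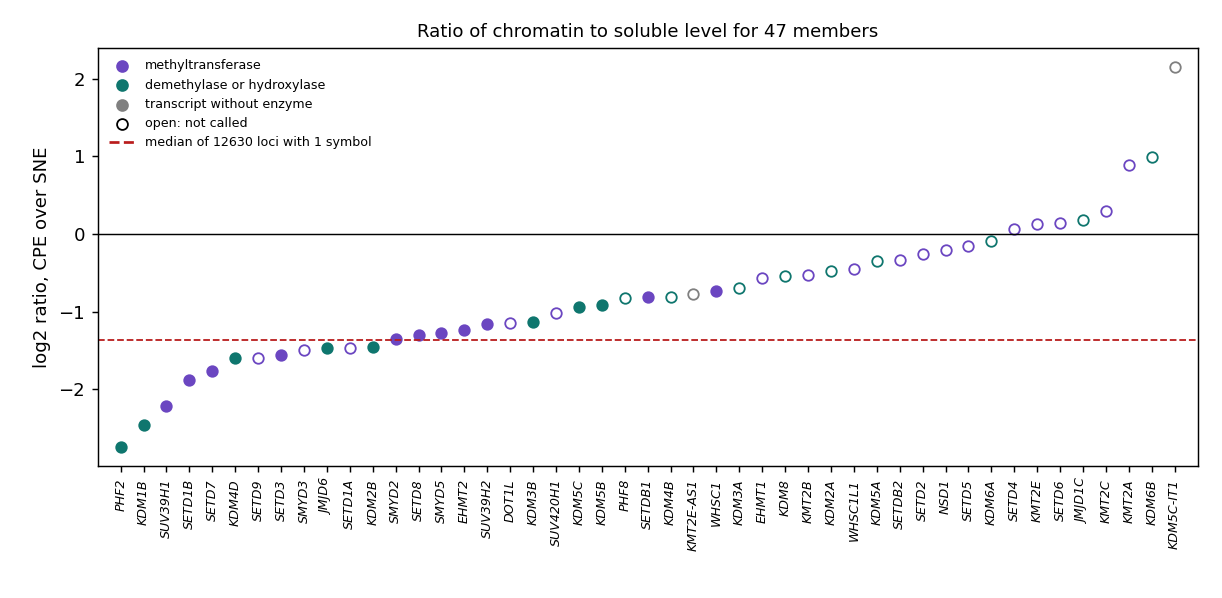
The log2 ratio of CPE to SNE (vertical axis) is plotted for each of the 47 members in rising order, with filled points for the 19 called higher in SNE and open points for the rest. Points run from PHF2 at -2.75 to KDM5C-IT1 at 2.15, most of them above the dashed line at -1.36, the median of 12630 loci with 1 symbol.

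KDM1B and KMT2A stand near the opposite ends of this order and were chosen, after their values were seen, to show what the starts of such genes look like. KDM1B, an amine oxidase demethylase of H3K4, had an FPKM of 12.4 (SNE) against 2.25 (CPE) by the authors' deposited table, a log2 ratio of -2.46 (q = 0.000706). KMT2A, the MLL1 methyltransferase of H3K4 known from leukaemia translocations, had 15.9 and 29.5 there, a log2 ratio of 0.89 (q = 0.493). On hg19 the table places KDM1B in chr6:18155560-18224084 and KMT2A in chr11:118307205-118474329. Both starts are rich in CpG. Their RefSeq promoters on GRCh38.p14, from 250 bases before the start to 50 after it on the plus strand, hold 39 and 36 CpG dinucleotides. The lines below give them 5′ to 3′, chr6:18155172-18155471 for KDM1B and chr11:118436242-118436541 for KMT2A, with each GC box (GGGCGG or its reverse complement, 4 and 3 matches) in capitals.
KDM1B: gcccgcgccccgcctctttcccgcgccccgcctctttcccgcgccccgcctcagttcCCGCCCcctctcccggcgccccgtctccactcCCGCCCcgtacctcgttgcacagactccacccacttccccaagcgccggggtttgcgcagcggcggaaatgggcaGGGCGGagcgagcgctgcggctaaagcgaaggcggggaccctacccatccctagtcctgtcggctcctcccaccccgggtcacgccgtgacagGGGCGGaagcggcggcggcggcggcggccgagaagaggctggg
KMT2A: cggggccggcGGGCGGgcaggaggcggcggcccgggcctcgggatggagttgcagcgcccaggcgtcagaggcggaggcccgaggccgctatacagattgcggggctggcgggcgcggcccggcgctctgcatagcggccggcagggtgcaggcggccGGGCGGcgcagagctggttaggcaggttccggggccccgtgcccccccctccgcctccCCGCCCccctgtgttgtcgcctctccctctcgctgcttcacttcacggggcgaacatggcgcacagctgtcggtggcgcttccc

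Most promoters of the family held a GC box, but none of those of KDM5C, SETD7 and SETDB1 did. Their CpG counts ran from 1 to 63 over all member promoters. RefSeq promoters were found for 41 of the 45 enzyme members, and DOT1L, JMJD6, SETD1B and WHSC1L1 had none in the table used. Some members have several starts, and promoters of a gene can overlap, so 64 promoters were counted. The GC box, searched on both strands, was in 51 of 64 (79.7%), against 45% of 35116 promoters in the table. The median CpG count was 29.5, against 14 overall. CCAAT was found in 32.8% and 34.6%, and CCGGAAG, the core of ETS factor sites, in 10.9% and 10.3%. TATAAA was in 0 of 64 member promoters and in 11.5% of all. Median CpG counts were 30 in 23 promoters of members higher in SNE and 29 in 41 promoters of members not called. This compares promoters by call, and not the ends of the order of ratios. The overall table includes promoters of non-coding genes and was not limited to expressed genes. A match is a string of letters, not a shown binding site.

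Among the H3K4 methyltransferases, the 4 KMT2 loci that are members were not called, while SETD7 and SMYD2 were higher in SNE. The row naming KMT2D together with PRKAG1, outside the rule, was called higher in SNE by the authors' deposited table (90.8 against 27.9, q = 0.000706). KMT2C, which monomethylates H3K4 at enhancers, had FPKM values of 14.1 (SNE) against 17.3 (CPE) by the authors' deposited table (q = 0.605), and partial copies of this gene elsewhere in the genome make its value uncertain. KMT2E, a divergent SET protein, had 10.8 and 11.8 there (q = 0.828). KMT2B, the closest relative of KMT2A, had 8.62 and 5.96 by the authors' deposited table (q = 0.493). SETD7, a monomethylase of H3K4 and of many other proteins, stood at 28.3 (SNE) against 8.31 (CPE) by the authors' deposited table, 3.40-fold higher in SNE (q = 0.000706). SMYD2, a lysine methyltransferase that also acts on p53, had 34.1 and 13.3 there (2.56-fold, q = 0.00194). The COMPASS enzymes SETD1A and SETD1B, paralogs that account for much of H3K4 trimethylation, had close ratios and different calls. In the authors' deposited table SETD1B was at 2.04 (SNE) against 0.553 (CPE) (log2 ratio -1.88, q = 0.000706), and SETD1A at 5.08 and 1.84 (log2 ratio -1.47, q = 0.218). SMYD3 was at 9.37 and 3.32 there (q = 0.477). In all, 3 of 9 H3K4 members were higher in SNE (33.3%, against 48.1% of expressed loci), and their ratios fell into a group of 4 between -0.53 and 0.89 and a group of 5 at or below -1.36.

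The H3K9 methyltransferases all had ratios below 0, and 4 of 6 were called, where 48.1% of expressed loci were called and 10553 of 12630 had ratios below 0. SUV39H1 and SUV39H2, which trimethylate H3K9 in pericentromeric heterochromatin, had FPKM values of 18.1 and 52.5 in SNE by the authors' deposited table, and of 3.88 and 23.6 in CPE. SUV39H1 was 4.67-fold higher in SNE (q = 0.000706) and SUV39H2 2.23-fold (q = 0.0224). Whether the paralogs differ from each other was not tested. EHMT2 (G9a), which with EHMT1 (GLP) dimethylates H3K9 in euchromatin, had 28.9 and 12.3 by the authors' deposited table (log2 ratio -1.24, q = 0.000706). Its partner EHMT1 had 20.2 and 13.7 there (log2 ratio -0.56, q = 0.188). SETDB1, the enzyme recruited by KRAB zinc fingers through TRIM28, was at 38.1 and 21.6 by the authors' deposited table and passed the threshold narrowly (q = 0.0489), while SETDB2 was at 4.89 and 3.87 and was not called (q = 0.493).

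Of the H3K36 group only WHSC1 was called (25%, against 48.1% of expressed loci). All 4 ratios lay above the median of expressed loci, as did those of 35 of the 47 members. NSD1, a dimethylase of H3K36 mutated in Sotos syndrome, had an FPKM of 59.2 (SNE) against 51.2 (CPE) by the authors' deposited table (q = 0.581). SETD2, which trimethylates H3K36 in the wake of RNA polymerase II, had 12.9 and 10.7 there (q = 0.495). WHSC1L1 (NSD3) was at 24 and 17.6 by the authors' deposited table (q = 0.493). WHSC1 (NSD2), a dimethylase linked to multiple myeloma, was at 63.7 and 38.2 there, 1.67-fold higher in SNE (q = 0.047). The region of WHSC1 also holds a row that names MIR943 and NELFA, at 14.8 and 4.98 by the authors' deposited table (q = 0.0834).

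For the remaining writers the calls were mixed. DOT1L, the only H3K79 methyltransferase, had 9.93 (SNE) against 4.48 (CPE) by the authors' deposited table (q = 0.511). SETD8, the H4K20 monomethylase, had 24.6 and 9.96 there (2.47-fold, q = 0.000706), and SUV420H1, which adds further methyl groups to H4K20, had 7.61 and 3.76 (q = 0.0842). SETD5, a SET protein tied to neurodevelopmental disorders, was the most abundant member in chromatin and the second in SNE, at 101 (SNE) against 90.7 (CPE) by the authors' deposited table (q = 0.816). SETD3, now known as an actin histidine methyltransferase, was at 42.2 (SNE) against 14.3 (CPE) there (q = 0.00517), and SMYD5 was at 28.1 and 11.6 (q = 0.0237). SETD4 and SETD6 had nearly equal FPKM values in both fractions in the authors' deposited table, with log2 ratios of 0.06 and 0.15 (q = 0.897 and 0.805). Both ratios lay above the median of expressed loci (-1.36), as did those of 35 of the 47 members. SETD9 had a ratio of -1.60 there without a call (q = 0.366).

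**Figure D2:**
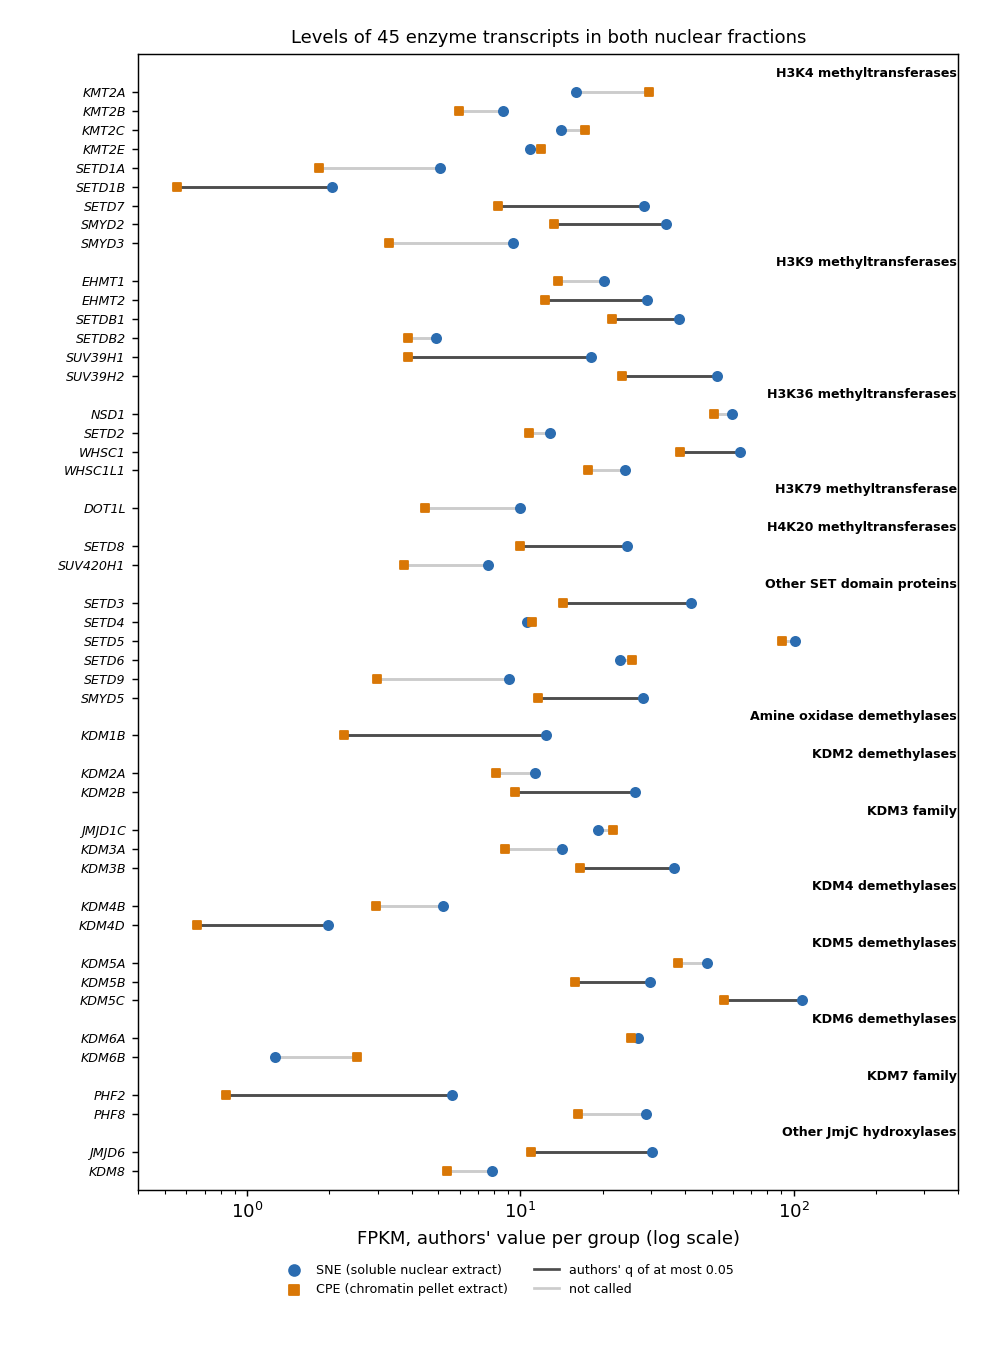
FPKM on a log axis is shown for the 45 enzyme members in SNE (circles) and CPE (squares), grouped by the residue or family they act in, with dark lines where the authors' q was at most 0.05. The widest gaps among called genes are those of PHF2, KDM1B and SUV39H1, and the lines of the 4 KMT2 genes and NSD1 are pale, with that of KMT2A running towards CPE.

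Demethylases covered the same span. PHF2, a JmjC protein that acts on H3K9, had the lowest ratio of all members, with an FPKM of 5.61 (SNE) against 0.835 (CPE) by the authors' deposited table (6.72-fold higher in SNE), though its q of 0.0416 was modest. PHF8, its relative with activity on H3K9 and H4K20, had 28.8 and 16.3 there and missed the threshold (q = 0.0541). The KDM2 enzymes, CXXC proteins bound at CpG islands, divided: KDM2B, the recruiter of a variant Polycomb complex, was at 26.2 and 9.53 (q = 0.0259), and KDM2A was at 11.3 and 8.13 (q = 0.489) in the authors' deposited table.

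In the KDM3 family, which removes methyl groups from H3K9, KDM3B was called and its relatives were not. KDM3B stood at 36.4 (SNE) against 16.5 (CPE) by the authors' deposited table (2.20-fold, q = 0.000706). KDM3A was at 14.2 and 8.80 there (q = 0.306), and JMJD1C at 19.2 and 21.7 (q = 0.619). Of the KDM4 enzymes, which act on H3K9, KDM4D was low in both fractions, at 1.99 and 0.653 by the authors' deposited table (q = 0.000706), and KDM4B was at 5.21 and 2.97 (q = 0.270).

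The KDM5 enzymes, which erase H3K4 trimethylation, include the most abundant demethylases in both fractions, KDM5C and KDM5A. KDM5C, an X-linked gene of intellectual disability, had the highest SNE value of all members, 107 against 55.4 in CPE by the authors' deposited table (1.93-fold, q = 0.0216). KDM5B was at 29.7 and 15.8 there (1.88-fold, q = 0.0349), and KDM5A at 48.1 and 37.8 without a call (q = 0.517). Against the overall median of -1.36, all 3 KDM5 ratios lay on the chromatin side, as did those of 35 of the 47 members.

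The KDM6 enzymes, which remove the Polycomb mark H3K27 methylation, were the demethylases least shifted towards SNE together with JMJD1C. KDM6A (UTX) had 27.0 (SNE) against 25.4 (CPE) by the authors' deposited table (q = 0.781). KDM6B (JMJD3) had 1.27 and 2.52 there, the highest ratio of any enzyme member (0.99), and was not called (q = 0.443). JMJD6, a lysyl hydroxylase of splicing factors whose demethylase activity is disputed, was at 30.4 and 11.0 by the authors' deposited table (2.77-fold higher in SNE, q = 0.000706), and KDM8 was at 7.87 and 5.39 (q = 0.493).

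Writers and erasers had like counts and medians. Of 28 methyltransferases and SET proteins 11 were higher in SNE (39.3%), and of 17 demethylases and hydroxylases 8 were (47.1%), with 48.1% among expressed loci. Their median log2 ratios were -0.92 and -0.83. Median FPKM values were 19.1 and 19.2 in SNE, and 11.7 and 9.53 in CPE. Among the opposed enzymes of H3K4, 3 of 9 members grouped as methyltransferases, the divergent KMT2E included, were higher in SNE (33.3%). Of the KDM5 demethylases 2 of 3 were (66.7%), as was KDM1B, against 48.1% of expressed loci. These are counts over few genes. Differences between genes were not tested.

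The order of abundance changed between fractions. By FPKM, which is per transcript length, the leading members in SNE were KDM5C, SETD5, WHSC1, NSD1 and SUV39H2. In CPE they were SETD5, KDM5C, NSD1, WHSC1 and KDM5A. KMT2A moved from rank 25 of 47 in SNE to rank 6 in CPE, and SETD6 from 21 to 7. SETD3 moved the other way, from 7 to 17, and SETD7 from 15 to 29. With 1 value per fraction, neighbours in these orders could not be separated.

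KMT2E-AS1 and KDM5C-IT1, the 2 members without an enzyme product, were low and uncalled. KDM5C-IT1, named as an intronic transcript of KDM5C, had an FPKM of 0.385 (SNE) against 1.71 (CPE) by the authors' deposited table (log2 ratio 2.15, q = 0.543), opposite in direction to KDM5C itself. KMT2E-AS1 had 2.02 and 1.18 there (q = 0.682). Libraries were stranded, but the sources used here do not give whether the counting used strand, and reads of such transcripts and their hosts may be mixed.

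Members with more exons had ratios closer to chromatin. Across the 45 enzyme members, Spearman's rho of the log2 ratio was 0.53 with the number of exons of the longest transcript, 0.52 with the length of that transcript and 0.27 with gene length, as a description over genes that share the same libraries. Over 9421 protein-coding loci the corresponding values were 0.44, 0.41 and 0.41. Enzyme members are large: their medians were 68.5 kb of gene, 21 exons and 6.14 kb of transcript, against 37.1 kb, 9 exons and 3.86 kb. KMT2C with 59 exons, KMT2B with 37 and KMT2A with 36 head the exon count, and all 3 were uncalled. Of the enzyme members with the fewest exons, KDM4D with 3, SUV39H2 with 5 and SUV39H1 with 6 were higher in SNE, and SETD9, also with 6, was not called. PHF2, with 22 exons and the lowest ratio of all, goes against the relation. SMYD3 goes against gene length, being the longest member at 758 kb, with 7 exons in its longest transcript and a log2 ratio of -1.50. Exon counts here are of 1 annotated transcript per gene, the one with the most exonic bases. They need not be those of the gene's main messenger RNA, and how rho depends on this choice was not tested.

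Within classes of gene length, the members' medians lay above those of protein-coding loci, a set that includes the members. Below 30 kb, 8 of 14 enzyme members were higher in SNE with a median of -1.29, and 71.8% of 4103 protein-coding loci were, with a median of -1.77. From 30 to 100 kb the members gave 7 of 14 and -0.93, against 55.9% and -1.35. Above 100 kb they gave 4 of 17 and -0.47, against 29.2% and -0.91. In each of these 3 length classes the members' median was closer to 0, a difference that was not tested. The classes do not match exon number or transcript length, in which the members also differ.

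**Figure D3:**
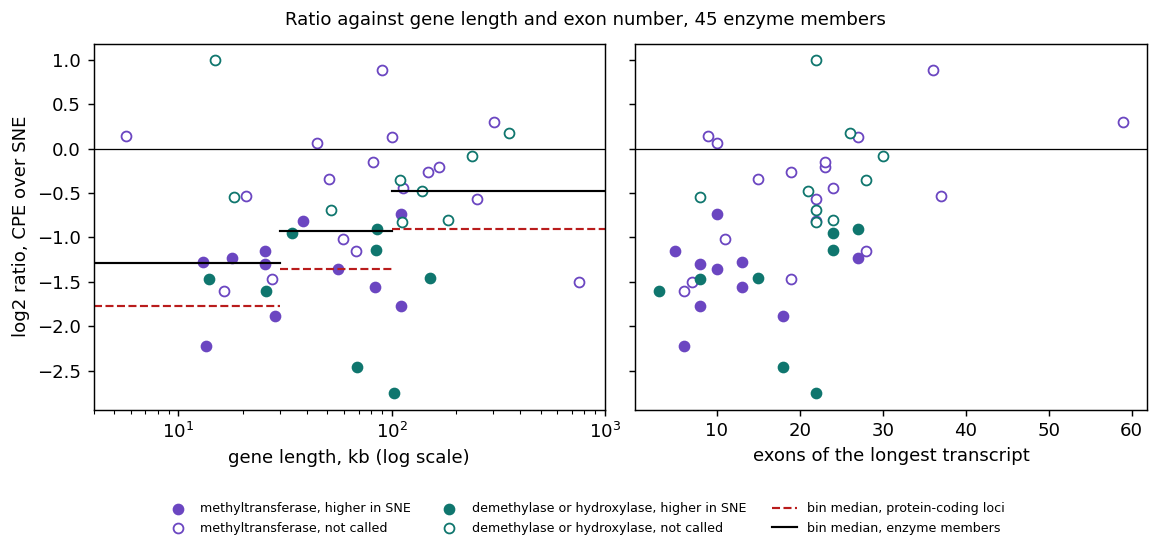
The log2 ratio of CPE to SNE is plotted against gene length (left, log axis) and exon number (right) for the 45 enzyme members, filled where higher in SNE. Solid lines give the members' median and dashed lines the median of protein-coding loci in 3 length classes, and the solid line lies higher in each.

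The ratios also moved with crowding of the region. The table gives each locus a genomic region that it may share with other loci, and 23 of the 45 enzyme members shared theirs with another tested symbol of FPKM at least 1. The 22 members alone in their region had a median log2 ratio of -1.27 and 13 were higher in SNE (59.1%). The 23 beside another symbol had a median of -0.45 and 6 were called (26.1%). Among all expressed loci with 1 symbol, 61.0% of 6469 alone and 34.5% of 6161 in shared regions were higher in SNE, with medians of -1.52 and -1.18. KMT2A, KMT2B, KMT2C, KMT2E, NSD1, SETD5 and SETD6 are all in shared regions, for instance SETD6 beside CNOT1. Members with low ratios are there too, among them SETD9 (-1.60), SETD1A (-1.47) and KDM2B (-1.46). Median gene length was 81.6 kb for enzyme members in shared regions and 63.7 kb for those alone. Among all expressed loci it was 25.9 and 32.4 kb. Without the members in shared regions, the rho with exon number was 0.43 and that with gene length 0.12. How reads were divided within shared regions was not tested.

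Around the same genes, loci without a symbol mostly had ratios above 0. The 45 regions that hold a member contain 1140 such loci, of which 1105 were tested: 64 passed towards CPE (5.79%), 0 towards SNE and 1041 in neither direction. In the regions of all tested loci with 1 symbol, 6.95% of 154228 unnamed loci were higher in CPE and 0.514% in SNE, so the members' regions lay near this background. Of the 1105 tested loci, 1075 had a ratio above 0 (97.3%), with a median of 2.88 (interquartile range 2.15 to 3.64), against 97.5% and a median of 3.34 over all 154228. Of the 753 with an FPKM of at least 1 in either fraction, 611 reached it in CPE alone. A locus needs reads to be tested, so the share above 0 is given as a description. Among the 142 with an FPKM of at least 1 in SNE, a filter chosen after seeing the data that leans the other way, 116 were above 0 (81.7%) with a median of 1.51, against 74.9% of 12702 such loci and 1.43. How the unnamed loci were defined is not given in the sources used here, and the table does not say whether they lie in introns or on which strand.

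In the 45 regions, the median ratio of the tested unnamed loci was above that of the enzyme's own locus. The same held for 95.1% of 11618 expressed loci with 1 symbol, so this is the usual order in the table and not particular to the enzymes. PHF2 had a ratio of -2.75 in the authors' deposited table and the 20 tested unnamed loci of its region a median of 2.50, and KDM1B had -2.46 and a median of 2.68 over 19. At KMT2C and KDM6A, medians over 66 and 68 tested unnamed loci were 3.41 and 3.53. SMYD3, the longest gene, had the most unnamed loci called in CPE, 15 of 128 tested, and the highest median (3.89). Of these 128, only 31 reached an FPKM of at least 1 in either fraction, and 16 were listed at 0 in SNE. Most of the 15 carry neighbouring identifiers, and whether they are separate transcripts was not tested. The lowest median was that of the SETD1A region, 0.33 over 14 loci. Of the unnamed loci called in CPE, the one with the highest FPKM was in the region of SETD5, at an FPKM of 4.90 (SNE) against 19.9 (CPE) by the authors' deposited table (q = 0.000706). Of the 45 regions, 27 held at least 1 locus called in CPE.

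**Figure D4:**
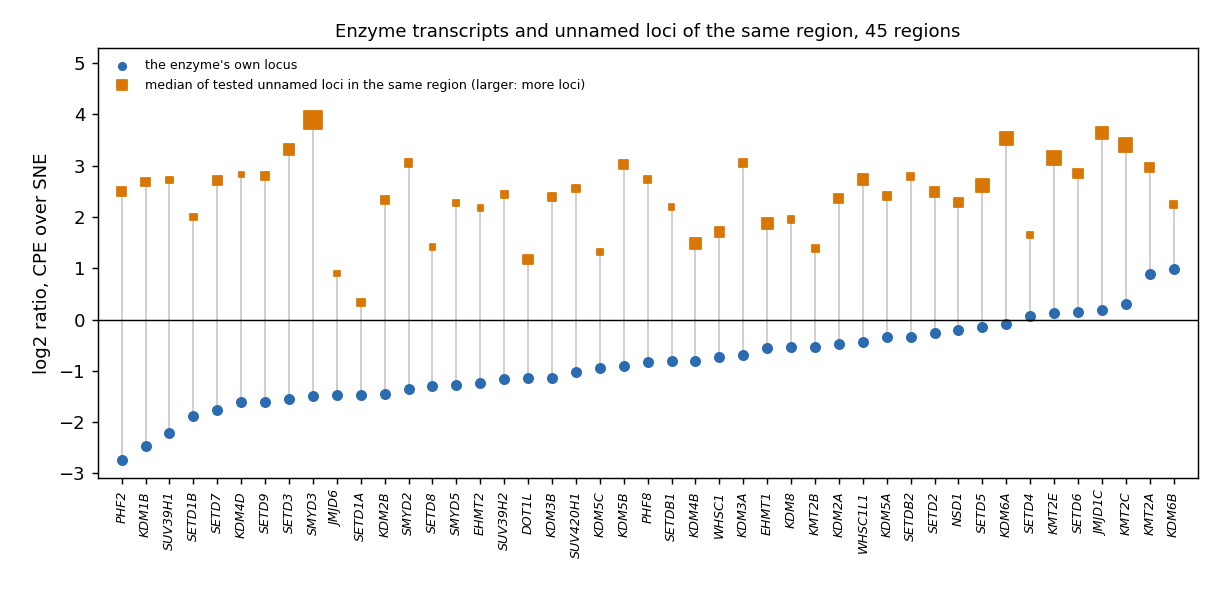
For 45 regions, the log2 ratio of CPE to SNE (vertical axis) of the enzyme's own locus (circles) is joined to the median ratio of the tested unnamed loci of that region (squares, larger for more loci). Each square lies above its circle, from 0.33 at SETD1A to 3.89 at SMYD3.

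Partner and related gene lists gave the setting of these values, none with a gene called higher in CPE, and each is to be read against the 48.1% of expressed loci higher in SNE and their median of -1.36. Of 11 tested partners of the COMPASS and MLL complexes 5 were higher in SNE (45.5%, median log2 ratio -1.33). MEN1, the menin subunit that tethers KMT2A, was 3.82-fold higher in SNE by the authors' deposited table (q = 0.000706), and PSIP1 was the most abundant, at 89.4 and 35.2 without a call (q = 0.144). Of 8 DOT1L partners and elongation factors, 4 of them AFF scaffolds of elongation complexes, 3 were higher in SNE (37.5%, median -0.92). MLLT1 was 4.26-fold higher in SNE by the authors' deposited table (q = 0.000706), whereas MLLT10 was at 23.3 and 33.6 without a call (q = 0.563). Among 11 H3K9 partners and readers 6 were higher in SNE (54.5%, median -1.42), with WIZ, the zinc finger partner of G9a, at a log2 ratio of -3.50 in the authors' deposited table (q = 0.013) and TRIM28 at 1102 and 295.6 (q = 0.000706).

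Of 13 LSD1-CoREST genes 6 were higher in SNE (46.2%, median -1.28), led by HMG20B at 5.19-fold in the authors' deposited table (q = 0.0228), with HDAC2 the most abundant of the list (3.30-fold, q = 0.000706). Of 8 partners of KDM2B 4 were higher in SNE (50%), with a median of -1.03 over the 7 with an FPKM of at least 1 in either fraction. Among the called were RING1 at 4.05-fold (q = 0.000706) and USP7 at 1.96-fold (q = 0.0463) in the authors' deposited table.

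Of 8 tested arginine methyltransferases and cofactors 7 were higher in SNE (87.5%, against 48.1% of expressed loci), with a median of -1.76, and 1 of the 7 called, CLNS1A, is a cofactor of PRMT5 and no enzyme. PRMT5, the main symmetric dimethylase, was at 441 (SNE) against 130.5 (CPE) by the authors' deposited table (q = 0.000706), and PRMT6 was 3.89-fold higher in SNE (q = 0.000706). Histone acetyltransferases gave 3 of 11 higher in SNE (27.3%) and a median of -0.51, led by HAT1 at 3.24-fold in the authors' deposited table (q = 0.000706). Deacetylases and sirtuins outside the LSD1-CoREST list gave 9 of 14 (64.3%) and -1.40, with SIRT6 at 4.49-fold (q = 0.000706) by the authors' deposited table and HDAC3, the most abundant of these 14, without a call (q = 0.169). Other SET and JmjC proteins, in a list that also holds the methyltransferase N6AMT1 with neither domain (not called, q = 0.117), gave 6 of 21 (28.6%). Their median was -0.81 over the 19 with an FPKM of at least 1 in either fraction. The called PRDM8 was below that level, at 0.633 and 0.197. In the same list PRDM13 had FPKM values of 3.99 and 0.0479 by the authors' deposited table (q = 0.0382), and JMJD8 was the most abundant at 50.1 and 17.2 (q = 0.000706).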

How the data were processed

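RNA-seq of 3 SNE and 3 CPE samples of HEK293 was analysed from the authors' deposited Cuffdiff gene table. Reads were processed with TopHat2 and Cuffdiff on hg19, per the submitters' processing notes; their versions, the annotation and the scaling are not given in the sources used here. All deposited values (1 FPKM per locus and fraction, the log2 ratio, the p-value and the q-value) are the authors' own. Their test statistic, deposited as an unscaled score, was not used. The q values equal a Benjamini-Hochberg adjustment over 192931 tested loci (largest difference 5.28e-07), and the smallest p, 5e-05, gives q = 0.000706, shared by 9 members. A second deposited table of isoforms was left out: of 14208 value pairs found once in both tables, 86.6% stood under another gene identifier. Since each fraction has 1 pooled value, no SD, interval or replicate test was computed, and depth was unknown.

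Loci with status OK were called where q was at most 0.05, with the sign of the ratio as direction. Members, roles and partner lists were chosen with earlier results of these data known. Every member may be named; of each partner list the called gene with the largest change in each direction and the most abundant gene were named. Gene length, transcript length and exons came from GENCODE 29 by symbol or older symbol (47 of 47 members, 87.2% of 12630 expressed loci), without its coordinates, since that build is not hg19. Promoters came from RefSeq on GRCh38.p14. Python 3.11.15, pandas 2.3.3 and scipy 1.17.1 were used. The member rule and calls were tested on simulated data. Alternatives were stricter q, FPKM and ratio minimums, pseudocounts, centring, rows naming several genes, and, chosen after seeing the data, centring on expressed loci, members alone in their region, the enzymes alone, SMYD3 left out, and stricter minimums for exon, length and unnamed-locus values.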

Additional observations from a re-analysis of the deposited data

How the results depend on the processing

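No paired analysis was possible because the table holds 1 value per fraction, and for the same reason no replicate could be left out. At q of at most 0.01 the members higher in SNE went from 19 to 11 (7 methyltransferases and 4 demethylases), and 8 members lost their call. The count was 17 at an FPKM of at least 5, 15 at an absolute log2 ratio of at least 1 and 21 with rows that name several genes. Without members in shared regions it was 13, of which 7 were methyltransferases, and the median log2 ratio was -1.27 in place of -0.82; the rho with gene length was 0.12 and that with exon number 0.43. The count higher in CPE was 0 under each of these. The median of unnamed loci, 2.88, was 1.51 among those with an FPKM of at least 1 in SNE.

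Centring on the median of all tested loci with 1 symbol (-1.22) turned the members' median to 0.41, and centring on expressed loci (-1.36), added after seeing the data, to 0.54. Of the called members 13 and 9 then had a ratio below 0 and 6 and 10 above it, counts of sign and not calls. The methyltransferases below 0 were 8 and 4 and the demethylases 5 under both. With the first centring, the ratio changed side at 6 called members, to SUV39H2 0.0697, KDM3B 0.0878, KDM5C 0.28, KDM5B 0.32, SETDB1 0.41 and WHSC1 0.49. It also changed side at 17 uncalled members, to DOT1L 0.0747, SUV420H1 0.21, PHF8 0.40, KDM4B 0.42, KMT2E-AS1 0.45, KDM3A 0.53, EHMT1 0.66, KDM8 0.68, KMT2B 0.69, KDM2A 0.75, WHSC1L1 0.78, KDM5A 0.88, SETDB2 0.89, SETD2 0.96, NSD1 1.01, SETD5 1.07 and KDM6A 1.14. A pseudocount of 0.1 changed no member's direction. Without values per sample, depth cannot be weighed.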
